A study of Mus musculus with 12 samples.

Results

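The MHC class I and immunoproteasome genes described here are 10 mouse genes taken by name: the class I heavy chains H2-K1 and H2-D1, the light chain B2m, the transactivator Nlrc5, the peptide transporter genes Tap1 and Tap2, the loading factor Tapbp, and the inducible proteasome subunits Psmb8, Psmb9 and Psmb10. They are 10 of the 55413 genes in the deposited tables, and all 10 were among the 15705 genes with enough counts to be tested. RNA was sequenced from regulatory T cells (Treg) in 12 libraries: 3 tumor pTreg libraries, 5 tumor tTreg libraries and 4 libraries of total lymph node Treg, here called LN Treg. For the tumor groups, tTreg sorted from spleen and lymph nodes of CD45.1 Foxp3YFP-cre mice were mixed with conventional Foxp3- CD4+ T cells and with CD8+ T cells of CD45.2 Foxp3YFP-cre mice at 1:10:8, and the mixture was given to TCRbd-/- mice, which lack their own T cells. Hepa1-6 cells, an established mouse hepatoma line, were inoculated 3 days later, and Treg were sorted from tumors on day 18. The LN Treg came from tumor-free mice with the treatment given as none. The genotype label of every library, LN Treg included, reads "Foxp3YFP-cre and TCRbd-/- mice", and no age is given. The tumor Treg therefore lived in hosts whose T cells all came from the transfer, while the labels describe no transfer for LN Treg. The labels do not say whether libraries of a group came from separate mice, so p-values measure the spread between libraries, which may be technical.

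Class I molecules carry short peptides from proteins made inside a cell to its surface, where CD8+ T cells read them. Proteasomes cut the proteins, the Tap1/Tap2 transporter moves the peptides into the endoplasmic reticulum, tapasin (the product of Tapbp) holds the empty class I molecule beside the transporter, and the filled heavy chain leaves with beta-2-microglobulin (the product of B2m). Interferon gamma raises most of these genes in many cell types, partly through Nlrc5, and in the proteasome it swaps the constitutive catalytic subunits Psmb5, Psmb6 and Psmb7 for Psmb8, Psmb9 and Psmb10. Lymphocytes hold much class I and immunoproteasome at rest. Nearly every nucleated cell expresses class I, so these genes do not mark T cells.

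Of the 10 genes, 7 lie on chromosome 17 and 2 of the other 3 on chromosome 8 (GRCm38, GENCODE gene bounds). The gene H2-K1 is at chr17:33996017-34000347 on the minus strand, Tapbp at chr17:33915899-33929292 and H2-D1 at chr17:35262730-35267499, both on the plus strand. Between H2-K1 and H2-D1 lies a run of 4 genes: Psmb9 at chr17:34181987-34187764 (minus), Tap1 at chr17:34187553-34197225 (plus), Psmb8 at chr17:34197721-34201454 (plus) and Tap2 at chr17:34203527-34216321 (plus). The other genes are B2m at chr2:122147686-122153083 (plus), Nlrc5 at chr8:94434356-94527272 (plus) and Psmb10 at chr8:105935735-105938444 (minus). The bounds of Psmb9 and Tap1 overlap at their starts, and no strand setting is given in the sources used here, so reads from that stretch cannot be told apart.

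RefSeq promoter windows (GRCm38.p6, 250 bases before the annotated start and the first 50 after it) were at hand for 8 of the 10 genes. The 5 printed here are those of H2-K1 and H2-D1 as a pair of near relatives, B2m as their shared partner, and Tap1 and Psmb8 as the transport and proteasome examples. Capitals mark letters matching a searched motif on either strand.
H2-K1, chr17:34000298-34000597, minus strand: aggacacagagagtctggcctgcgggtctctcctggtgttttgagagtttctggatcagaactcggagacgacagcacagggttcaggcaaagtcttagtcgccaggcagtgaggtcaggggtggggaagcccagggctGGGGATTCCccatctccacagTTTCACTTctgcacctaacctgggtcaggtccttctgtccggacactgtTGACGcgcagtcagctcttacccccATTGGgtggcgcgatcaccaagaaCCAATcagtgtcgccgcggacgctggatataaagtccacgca
H2-D1, chr17:35262844-35263143, plus strand: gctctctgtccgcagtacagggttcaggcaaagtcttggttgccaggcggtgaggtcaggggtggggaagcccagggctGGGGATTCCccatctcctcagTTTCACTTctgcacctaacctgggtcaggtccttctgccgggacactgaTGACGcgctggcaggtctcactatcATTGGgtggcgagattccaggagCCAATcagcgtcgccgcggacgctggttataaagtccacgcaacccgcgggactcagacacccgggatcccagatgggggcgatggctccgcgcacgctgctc
B2m, chr2:122147437-122147736, plus strand: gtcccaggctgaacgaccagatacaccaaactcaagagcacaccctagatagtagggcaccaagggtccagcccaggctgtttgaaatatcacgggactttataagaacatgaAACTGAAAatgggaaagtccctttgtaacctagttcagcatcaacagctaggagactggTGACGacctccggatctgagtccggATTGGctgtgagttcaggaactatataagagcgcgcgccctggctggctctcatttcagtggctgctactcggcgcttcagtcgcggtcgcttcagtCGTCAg
Tap1, chr17:34187306-34187605, plus strand: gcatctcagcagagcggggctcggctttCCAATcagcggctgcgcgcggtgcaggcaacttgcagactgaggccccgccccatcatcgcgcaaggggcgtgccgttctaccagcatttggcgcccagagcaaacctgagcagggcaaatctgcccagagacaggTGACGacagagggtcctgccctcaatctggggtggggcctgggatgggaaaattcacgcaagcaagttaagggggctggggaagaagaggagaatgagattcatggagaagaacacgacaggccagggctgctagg
Psmb8, chr17:34197945-34198244, plus strand: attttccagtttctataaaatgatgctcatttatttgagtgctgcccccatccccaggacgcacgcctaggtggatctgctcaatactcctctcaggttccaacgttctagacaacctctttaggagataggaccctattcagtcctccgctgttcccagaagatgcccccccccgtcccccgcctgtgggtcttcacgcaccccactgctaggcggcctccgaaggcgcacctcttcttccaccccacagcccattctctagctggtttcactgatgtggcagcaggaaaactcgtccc

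The motifs searched, on both strands, were AANNGAAA (a core bound by interferon regulatory factors, present in 23.9% of all 32851 RefSeq windows of this length), GGGGATTCC (bound by NF-kB, 0.25%), TGACG (the core of a CREB site, 20.8%) and CCAAT (bound by NF-Y, 37.4%). Positions are counted from the annotated start as 1. In H2-K1 the NF-kB letters stood at -111 to -103, the IRF core at -90 to -83, TGACG at -41 to -37 and CCAAT at -16 to -12. In H2-D1 the same 4 matches stood in the same order at -171 to -163, -150 to -143, -101 to -97 and -76 to -72. Both windows also held a further CCAAT, and a local alignment of the pair had 206 identical columns of 228 (90.4%). B2m held the IRF core at -137 to -130, TGACG at -78 to -74 and again at 45 to 49, and CCAAT at -53 to -49. Tap1 held CCAAT at -222 to -218 and TGACG at -86 to -82, and its window shares 275 of its 300 bases with that of Psmb9, which is read from the other strand and starts 226 bases away. The Psmb8 and Psmb10 windows held none of the 4 motifs, and no searched motif is part of another. The windows of H2-D1, Tapbp, Psmb8 and Psmb9 lie wholly within the gene bounds given above. For these genes the bases before those bounds were not searched. A match is a run of letters and not a site shown to be bound.

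The libraries held 17964262 to 18180959 counts in tumor pTreg, 18107272 to 18510923 in tumor tTreg and 14573864 to 17323894 in LN Treg. Their cell content differed far more than their depth, measured as CPM (counts scaled to a fixed library total) summed over marker genes. The 18 pan-T genes (CD3 chains, T cell receptor constants and others) summed to 1318 ± 12.03 CPM in tumor pTreg (SD, n = 3), 133 ± 2.94 in tumor tTreg (n = 5) and 6380 ± 74.4 in LN Treg (n = 4), and the 5 Treg genes, Foxp3 among them, to 296, 84.7 and 2618 CPM. The 14 macrophage and monocyte genes summed to 10571 to 10637 CPM in tumor pTreg, 10338 to 10916 in tumor tTreg and 52.8 to 60.7 in LN Treg. Hepatoma and hepatocyte genes (10) averaged 5572, 8174 and 8.48 CPM, and fibroblast genes (8) 144, 740 and 2.67 CPM, in that order of groups. Apoa2, Fgb, Col3a1, Lum and Pdgfra had no count in any LN Treg library. The libraries labelled tumor Treg therefore hold much RNA of other cells, each value below is a level in such a mixed library, and how far other cells set it was not tested. In bulk RNA, fewer cells of a type and less RNA per cell cannot be told apart.

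All 10 genes were lower in both tumor groups than in LN Treg, and 8 of the 10 were higher in tumor pTreg than in tumor tTreg. Together they took 0.609% of all counts in tumor pTreg, 0.454% in tumor tTreg and 1.05% in LN Treg. A gene is called changed where edgeR's quasi-likelihood test gave a Benjamini-Hochberg adjusted p under 0.05 over all 15705 genes. Between tumor pTreg and tumor tTreg, 52.1% of all tested genes were called, 26.8% as higher and 25.3% as lower in tumor pTreg, while the 10 genes had a median log2 fold change of 0.41 and all genes one of -0.008. Against LN Treg, 87.5% of tested genes were called in tumor pTreg, 47.6% as higher and 39.8% as lower, and the median log2 fold changes were -0.91 over the 10 genes and 0.12 over all. For tumor tTreg against LN Treg, 90.3% were called, 48.1% as higher and 42.3% as lower, with medians of -1.39 and 0.10. The CPM of the groups did not overlap for 8 of the 10 genes between tumor pTreg and tumor tTreg, where 24.4% of all genes were higher without overlap. All 10 genes were lower without overlap in each tumor group against LN Treg, as were 42.3% of all genes in tumor pTreg and 42.0% in tumor tTreg. Against backgrounds this large, the sizes of the changes say more than the counts of calls. The comparisons with LN Treg share the LN libraries, and the same libraries of each tumor group serve in 2 comparisons.

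**Figure D1:**
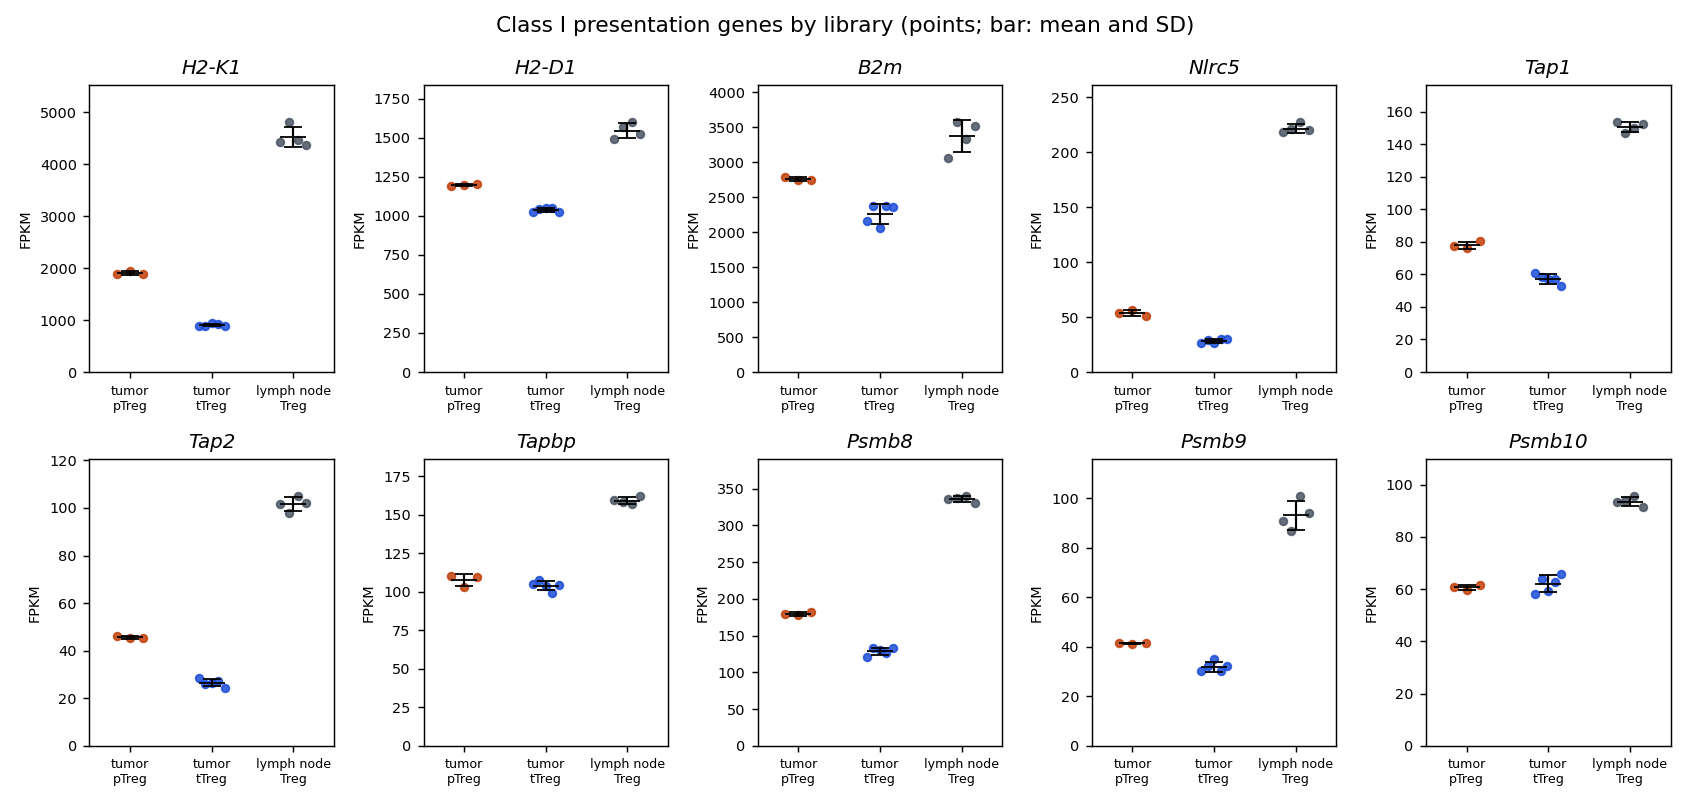
FPKM (fragments per kilobase of transcript, scaled to library depth) of the 10 genes, a panel each, with each library as a point and the mean and SD as a bar, for tumor pTreg (n = 3), tumor tTreg (n = 5) and LN Treg (n = 4). LN Treg libraries sit highest in every panel, and the tumor groups overlap in Tapbp and Psmb10.

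The heavy chain H2-K1 had a large range. It stood at 1879, 1949 and 1892 FPKM in tumor pTreg, 887, 888, 940, 919 and 887 FPKM in tumor tTreg, and 4433, 4801, 4463 and 4374 FPKM in LN Treg. The 3 groups did not overlap, with tumor tTreg lowest and LN Treg highest. On the count scale, H2-K1 was 1.92-fold higher in tumor pTreg than in tumor tTreg (log2 fold change 0.94, SE 0.032, edgeR adjusted p = 2.96e-20). Against LN Treg its log2 fold change was -1.19 in tumor pTreg (SE 0.035, edgeR adjusted p = 5.65e-23) and -2.14 in tumor tTreg (SE 0.030, edgeR adjusted p = 5.64e-31).

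H2-D1, the other classical heavy chain, spanned a narrower range. Its values were 1189, 1201 and 1201 FPKM in tumor pTreg, 1025, 1042, 1049, 1047 and 1024 FPKM in tumor tTreg, and 1491, 1568, 1599 and 1522 FPKM in LN Treg. The groups kept the order of H2-K1 without overlap, at smaller distances. The log2 fold change was 0.20 in tumor pTreg against tumor tTreg (SE 0.031, edgeR adjusted p = 3.91e-06), -0.24 in tumor pTreg against LN Treg (edgeR adjusted p = 1.05e-07) and -0.44 in tumor tTreg against LN Treg (edgeR adjusted p = 1.50e-14).

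Because the chains moved unequally, their ratio within a library differed between groups. FPKM of H2-K1 over H2-D1 was 1.59 ± 0.0265 in tumor pTreg (SD, n = 3), 0.872 ± 0.0162 in tumor tTreg (n = 5) and 2.93 ± 0.118 in LN Treg (n = 4). Per length, H2-D1 was thus the more abundant chain in each tumor tTreg library and H2-K1 in each library of the other groups. By counts not scaled to length, H2-D1 was above H2-K1 in each tumor pTreg library too (35745 to 35925 against 29893 to 30564 counts). The FPKM ratio of the chains was picked after its values were seen and is given without a test. Reads can be assigned to the wrong chain where the transcripts agree. Of the 50-base words of H2-K1 transcripts, 6.87% also occur in another gene, as do 13.9% of those of H2-D1. How many reads were assigned wrongly was not tested.

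B2m, which pairs with every class I heavy chain, had 2797, 2744 and 2747 FPKM in tumor pTreg, 2167, 2373, 2066, 2370.1 and 2358 FPKM in tumor tTreg, and 3069, 3572, 3338 and 3515 FPKM in LN Treg. Groups did not overlap, though 2 of the 5 tumor tTreg libraries lay below the others. The log2 fold change was 0.31 in tumor pTreg against tumor tTreg (SE 0.045, edgeR adjusted p = 1.74e-06), -0.18 in tumor pTreg against LN Treg (SE 0.048, edgeR adjusted p = 0.00106) and -0.49 in tumor tTreg against LN Treg (SE 0.042, edgeR adjusted p = 9.55e-12). In contrast to the ratio of the heavy chains, FPKM of H2-D1 over B2m overlapped between all groups, at 0.433 ± 0.00701 in tumor pTreg (n = 3), 0.459 ± 0.0311 in tumor tTreg (n = 5) and 0.459 ± 0.0270 in LN Treg (SD, n = 4). H2-K1 over B2m was 0.690 ± 0.0191, 0.401 ± 0.0334 and 1.34 ± 0.0816 in these groups.

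By mean FPKM among all genes, B2m ranked 34 in tumor pTreg, 53 in tumor tTreg and 33 in LN Treg, and H2-D1 ranked 99, 124 and 81. H2-K1 ranked 61 in tumor pTreg, 134 in tumor tTreg and 23 in LN Treg. Thus B2m led the 10 genes in both tumor groups, and H2-K1 led them in LN Treg.

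Nlrc5, the class I transactivator, had the largest edgeR fold changes on counts of the 10 genes in all 3 comparisons, though between the tumor groups it was close to H2-K1. With limma on log2(FPKM + 1), H2-K1 had the larger one there (1.08, against 0.89 for Nlrc5). Nlrc5 had 54.1, 56.7 and 50.9 FPKM in tumor pTreg, 26.3, 29.2, 26.9, 30.0 and 30.4 FPKM in tumor tTreg, and 218, 221, 227 and 220.0 FPKM in LN Treg. The groups were far apart next to their spread. Its log2 fold change was 0.98 in tumor pTreg against tumor tTreg (SE 0.030, edgeR adjusted p = 2.68e-21), -1.82 in tumor pTreg against LN Treg (SE 0.029, edgeR adjusted p = 2.85e-29) and -2.80 in tumor tTreg against LN Treg (SE 0.026, edgeR adjusted p = 3.87e-35). By mean FPKM it ranked 1936 in tumor pTreg, 3696 in tumor tTreg and 365 in LN Treg, which put it at rank 8 of the 10 genes in tumor pTreg, 9 in tumor tTreg and 5 in LN Treg. No 50-base word of Nlrc5 transcripts occurs in another gene.

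Tap1 and Tap2 encode the paired chains of the transporter. Tap1 lay between 76.0 and 80.4 FPKM in tumor pTreg, between 52.8 and 61.1 in tumor tTreg and between 147 and 153 in LN Treg. Tap2 lay between 45.2 and 46.2 FPKM in tumor pTreg, between 24.5 and 28.4 in tumor tTreg and between 97.9 and 105 in LN Treg. In neither gene did the groups overlap. The log2 fold change in tumor pTreg against tumor tTreg was 0.44 for Tap1 (SE 0.030, edgeR adjusted p = 6.60e-13) and 0.78 for Tap2 (SE 0.035, edgeR adjusted p = 4.38e-17). In tumor pTreg the change against LN Treg was -0.93 for Tap1 and -1.04 for Tap2, and in tumor tTreg it was -1.36 for Tap1 and -1.81 for Tap2, all called lower on the log2 scale. FPKM of Tap1 over Tap2 was 1.71 ± 0.0582 in tumor pTreg (n = 3), 2.16 ± 0.0605 in tumor tTreg (n = 5) and 1.48 ± 0.0372 in LN Treg (SD, n = 4), a description chosen after its values were seen.

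Tapbp, which encodes tapasin, was not called different between the tumor groups. It lay between 103 and 110.4 FPKM in tumor pTreg, between 99.3 and 108 in tumor tTreg and between 157 and 162 in LN Treg. The log2 fold change was 0.05 in tumor pTreg against tumor tTreg (edgeR adjusted p = 0.150), where the groups overlapped. Against LN Treg it was -0.48 in tumor pTreg and -0.53 in tumor tTreg, both called lower without overlap.

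**Figure D2:**
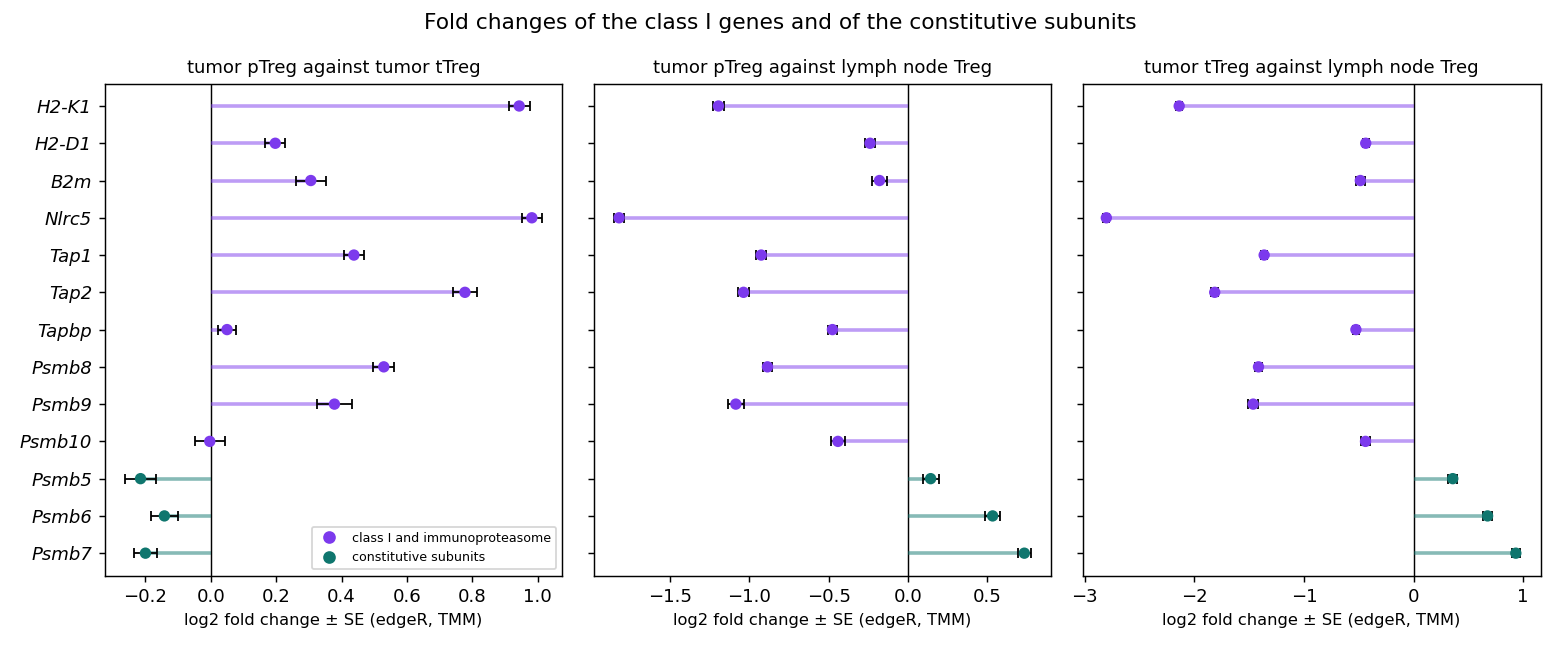
Log2 fold change on the count scale of each of the 10 genes and of the constitutive subunits Psmb5, Psmb6 and Psmb7 (points, with bars of 1 SE) in tumor pTreg against tumor tTreg, tumor pTreg against LN Treg and tumor tTreg against LN Treg, with a panel and its own axis range per comparison. Nlrc5 lies farthest from 0 in each panel, and Tapbp and Psmb10 lie near 0 in the first.

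Psmb8, the inducible subunit that replaces Psmb5, had 179, 178 and 182 FPKM in tumor pTreg, 121, 133, 130.4, 126 and 133 FPKM in tumor tTreg, and 336, 337, 340.0 and 331 FPKM in LN Treg. Libraries within a group were close, and no groups overlapped. Its log2 fold change was 0.53 in tumor pTreg against tumor tTreg (SE 0.032, edgeR adjusted p = 2.48e-14), -0.89 in tumor pTreg against LN Treg (SE 0.031) and -1.41 in tumor tTreg against LN Treg (SE 0.028), both of these called lower.

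Psmb9, which replaces Psmb6, was the least abundant of the 3 inducible subunits in both tumor groups and overlapped Psmb10 in LN Treg. It had 41.5, 41.3 and 41.4 FPKM in tumor pTreg, 30.1, 32.2, 35.1, 30.15 and 32.3 FPKM in tumor tTreg, and 90.7, 86.8, 101 and 94.2 FPKM in LN Treg. The groups were apart. Its log2 fold change was 0.38 in tumor pTreg against tumor tTreg (SE 0.053, edgeR adjusted p = 6.49e-07), -1.09 in tumor pTreg against LN Treg and -1.46 in tumor tTreg against LN Treg, both of these called lower.

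Psmb10, which replaces Psmb7, did not follow the other two between the tumor groups. It had 60.7, 59.8 and 61.8 FPKM in tumor pTreg, 58.0, 63.8, 59.3, 62.9 and 65.9 FPKM in tumor tTreg, and 93.2, 93.9, 95.6 and 91.5 FPKM in LN Treg. The tumor groups overlapped, and both lay below LN Treg. The log2 fold change was -0.003 in tumor pTreg against tumor tTreg (SE 0.046, edgeR adjusted p = 0.962) and -0.44 against LN Treg in tumor pTreg as in tumor tTreg, both called lower.

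The constitutive catalytic subunits moved against Psmb8 and Psmb9. Psmb5 averaged 78.8 ± 4.46 FPKM in tumor pTreg (SD, n = 3), 92.6 ± 4.16 in tumor tTreg (n = 5) and 76.7 ± 4.11 in LN Treg (n = 4). Psmb6 averaged 152 ± 6.87, 169.9 ± 11.4 and 112 ± 4.45 FPKM, and Psmb7 95.0 ± 3.83, 110.5 ± 2.76 and 61.5 ± 2.07 FPKM, in the same groups. All 3 were called lower in tumor pTreg than tumor tTreg, with log2 fold changes of -0.21 for Psmb5, -0.14 for Psmb6 and -0.20 for Psmb7; that of Psmb6 was -0.11 with an edgeR adjusted p of 0.0626 without tumor pTreg replicate 2. Against LN Treg, the 3 were called higher in tumor tTreg, by 0.36, 0.68 and 0.93 on the log2 scale. In tumor pTreg against LN Treg the log2 fold changes were 0.14 for Psmb5 (edgeR adjusted p = 0.00986), 0.53 for Psmb6 and 0.73 for Psmb7, and the Psmb5 call was lost with library totals as the only scaling (0.04, edgeR adjusted p = 0.467), with DESeq2 (0.12, adjusted p = 0.0665), with a mean of at least 5 CPM (0.10), with limma on FPKM under each pseudocount and filter (0.04), without LN Treg replicate 1 (0.09) and without tumor pTreg replicate 3 (0.11).

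A ratio of an inducible to its constitutive subunit within a library does not depend on how libraries are scaled. Psmb8 over Psmb5 was 2.30, 2.37 and 2.18 in tumor pTreg libraries, 1.39, 1.47, 1.37, 1.36 and 1.36 in tumor tTreg libraries, and 4.72, 4.16, 4.39 and 4.29 in LN Treg (ratios of FPKM). Psmb9 over Psmb6 was 0.261, 0.284 and 0.275 in tumor pTreg libraries, 0.197, 0.194, 0.196, 0.176 and 0.179 in tumor tTreg, and 0.782, 0.817, 0.897 and 0.816 in LN Treg. Psmb10 over Psmb7 was 0.611, 0.640 and 0.669 in tumor pTreg libraries, 0.548, 0.572, 0.536, 0.565 and 0.582 in tumor tTreg, and 1.53, 1.49, 1.51 and 1.56 in LN Treg. In all 3 pairs, every LN Treg library lay above every tumor pTreg library, and every tumor pTreg library above every tumor tTreg library. Per length, the inducible transcript was the more abundant of its pair for Psmb8 in all groups and for Psmb10 in LN Treg, and the less abundant for Psmb9 in all groups.

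**Figure D3:**
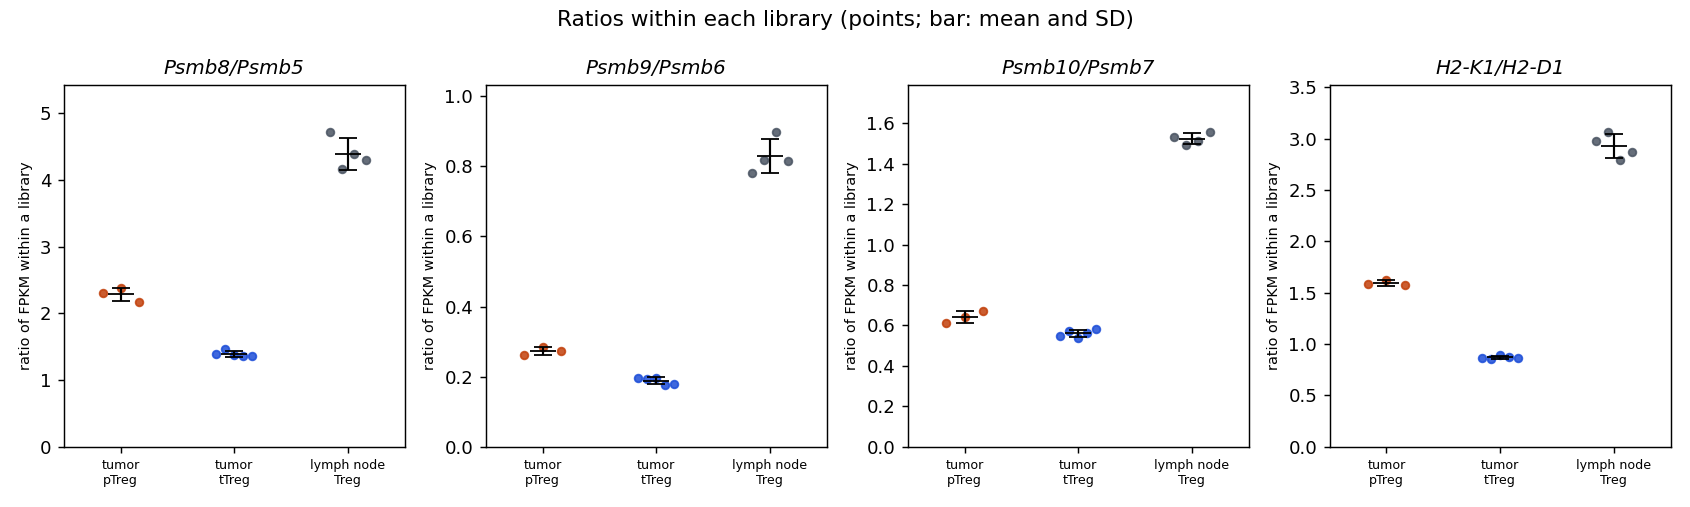
Ratios of FPKM within each library (points; bars give mean and SD) for Psmb8 over Psmb5, Psmb9 over Psmb6, Psmb10 over Psmb7 and H2-K1 over H2-D1 in tumor pTreg (n = 3), tumor tTreg (n = 5) and LN Treg (n = 4), each with its own axis from 0. The groups do not overlap in any panel, with LN Treg highest and tumor tTreg lowest.

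The differences in mean log2 ratio were tested with a two-sided exact permutation test over libraries, adjusted over the 9 tests of 3 ratios and 3 comparisons. In tumor tTreg against LN Treg the ratios were 3.16-fold lower for Psmb8 over Psmb5, 4.39-fold lower for Psmb9 over Psmb6 and 2.72-fold lower for Psmb10 over Psmb7 (exact permutation p = 0.0159 each, adjusted 0.0476, the smallest that 5 against 4 libraries allow here). They were 1.92-fold, 3.03-fold and 2.38-fold lower in tumor pTreg than LN Treg (exact permutation p = 0.0571, also after adjustment). Between tumor pTreg and tumor tTreg they were 1.64-fold, 1.45-fold and 1.14-fold higher in tumor pTreg (exact permutation p = 0.0357, adjusted 0.0536). The last 2 comparisons gave the smallest p their 3 libraries allow and could not reach 0.05 after adjustment. Of the 50-base words of Psmb5 transcripts, 54.1% also occur in other genes, chiefly the copy Gm3375; with the FPKM of such copies added to Psmb5, the log2 differences were 0.73 in tumor pTreg against tumor tTreg, -1.08 in tumor pTreg against LN Treg and -1.81 in tumor tTreg against LN Treg, a choice made after seeing the data.

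Psmb8 and Psmb9 did not move with the rest of the particle. Of 11 core 20S genes, the shared structural subunits, 7 were called lower and 0 higher in tumor pTreg against tumor tTreg (median log2 fold change -0.11), 8 higher and 0 lower in tumor pTreg against LN Treg (median 0.17), and 10 higher and 0 lower in tumor tTreg against LN Treg (median 0.28). The first count was 4 without tumor pTreg replicate 2, and the second was 5 higher and 2 lower with library totals only. Of all genes, 25.3% were called lower in the first of these comparisons, 47.6% higher in the second and 48.1% higher in the third. The all-gene medians were -0.008, 0.12 and 0.10, so the core 20S median of 0.17 in the second lay close to that of all genes. Psma5 averaged 108 CPM in tumor pTreg, 126 in tumor tTreg and 60.4 in LN Treg, and Psma7 averaged 100.1, 122 and 81.1 CPM. Pomp, the chaperone that assembles the catalytic subunits into the particle, averaged 108, 135 and 64.2 CPM and was called in all 3 comparisons (log2 fold changes -0.32, 0.85 and 1.17). Psme1 and Psme2, the interferon-inducible activator that caps the particle, followed the members instead: Psme1 averaged 161 CPM in tumor pTreg, 150 in tumor tTreg and 258 in LN Treg, and Psme2 averaged 99.2, 90.4 and 147 CPM. Both were called lower in each tumor group against LN Treg. Their small differences between the tumor groups (log2 fold changes 0.11 and 0.14) were called with edgeR under TMM scaling and not with DESeq2 (0.07 and 0.10). That of Psme1 also lost its call with edgeR under RLE factors (0.07, adjusted p = 0.0829), with limma on FPKM under each pseudocount and filter (0.09) and without tumor pTreg replicate 3 (0.09).

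Among 16 further class I-like heavy chain genes, 15 could be tested. In tumor pTreg against tumor tTreg, 9 were called higher and 2 lower, H2-Q1 (-0.38) and Cd1d1 (-0.19), with a median log2 fold change of 0.21. Of all genes, 26.8% were called higher there and 25.3% lower. In tumor pTreg against LN Treg, 3 were higher and 10 lower (median -0.63), beside 47.6% and 39.8% of all genes. In tumor tTreg against LN Treg, 3 were higher and 11 lower (median -1.66), beside 48.1% and 42.3% of all genes. H2-Q7, a nonclassical chain, averaged 590.2 CPM in tumor pTreg, 172 in tumor tTreg and 1443 in LN Treg, with log2 fold changes of 1.79 in tumor pTreg against tumor tTreg, -1.19 in tumor pTreg against LN Treg and -2.97 in tumor tTreg against LN Treg. H2-Q6 averaged 372, 115 and 488 CPM and H2-Q4 371, 199 and 684 CPM in these groups, both in the same order. These chains are near copies of each other, so the counts of a single Q gene are uncertain.

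The 3 chains called higher in both tumor groups than in LN Treg were H2-Q1, Fcgrt, the neonatal Fc receptor, and Hfe, a regulator of iron uptake, and they are named after their values were seen. H2-Q1 had 391 to 411 counts per library in tumor pTreg, 507 to 559 in tumor tTreg and 0, 0, 1 and 0 in LN Treg. Fcgrt averaged 135 CPM in tumor pTreg, 142 in tumor tTreg and 0.932 in LN Treg, and Hfe 54.8, 55.2 and 0.416 CPM. Neither Fcgrt nor Hfe was called different between the tumor groups (edgeR adjusted p = 0.124 for Fcgrt), although Fcgrt was called lower in tumor pTreg with RLE factors and with DESeq2. The sums of macrophage, hepatoma and fibroblast genes given above are likewise near 0 in LN Treg, and their part in these levels was not tested.

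Peptide loading and trimming genes did not move as a block. Of 10, 2 were called higher and 6 lower in tumor pTreg against tumor tTreg (median -0.09). With RLE factors or DESeq2 the first of these counts was 1. Of all genes, 26.8% were called higher and 25.3% lower there. In tumor pTreg against LN Treg, 6 were higher and 4 lower (median 0.26), beside 47.6% and 39.8% of all genes. In tumor tTreg against LN Treg, 5 were higher and 4 lower (median 0.25), beside 48.1% and 42.3% of all genes. The counts against LN Treg thus lay near the shares over all genes. The chaperone Canx averaged 628 CPM in tumor pTreg, 712 in tumor tTreg and 258 in LN Treg, and Pdia3, the disulfide isomerase paired with tapasin, averaged 1011, 1204 and 472 CPM. In tumor pTreg both were called lower than in tumor tTreg, and in each tumor group they were called higher than in LN Treg, opposite to H2-K1 and Nlrc5. Lnpep, an aminopeptidase that trims peptides in endosomes, averaged 261 CPM in tumor pTreg, 173 in tumor tTreg and 462 in LN Treg, in the order of H2-K1. The other gene called higher in tumor pTreg than tumor tTreg was Tpp2 (log2 fold change 0.11), a peptidase of the cytosol. The 4 called lower than LN Treg were Tapbpl, Erap1, Lnpep and Ganab in each tumor group, and the 5 called higher in tumor tTreg than LN Treg were Calr, Canx, Pdia3, Uggt1 and Hspa5; these and Tpp2 are named after their values were seen. Class II genes, which present to CD4+ T cells and are carried by macrophages, dendritic cells and B cells, had the opposite group order to H2-K1: H2-Aa averaged 1726 CPM in tumor pTreg, 2059 in tumor tTreg and 14.2 in LN Treg, and in tumor pTreg all 4 class II genes were called lower than in tumor tTreg and higher than in LN Treg, with tumor tTreg also above LN Treg.

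On the count scale, most interferon and transactivator genes were called lower in tumor pTreg than in LN Treg, as were 39.8% of all genes. Against tumor tTreg, most were called higher in tumor pTreg, as were 26.8% of all genes. Of 24 genes, 15 were called higher than in tumor tTreg and 1, the interferon receptor chain Ifnar2, lower (-0.10; median log2 fold change 0.23); the lower call was lost without tumor pTreg replicate 1 or 2 or tumor tTreg replicate 3, and 3 were called lower with RLE factors or DESeq2. Against LN Treg, 4 were higher and 17 lower in tumor pTreg (median -0.39). In tumor tTreg, 3 were higher and 19 lower (median -1.07), where 42.3% of all genes were called lower. Those higher in both were Ifngr2, Irf8, a factor of myeloid cells, and Ciita, the class II transactivator, and Ifng was the fourth in tumor pTreg; apart from Ifng they are named after their values were seen. Ciita had log2 fold changes of 5.14 in tumor pTreg and 5.15 in tumor tTreg against LN Treg, beside the macrophage gene sums given above, whose part in it was not tested. Ifng, the cytokine itself, averaged 103 CPM in tumor pTreg, 2.81 in tumor tTreg and 13.8 in LN Treg. Its log2 fold change was 5.19 in tumor pTreg against tumor tTreg (SE 0.071), 3.00 in tumor pTreg against LN Treg (SE 0.059) and -2.20 in tumor tTreg against LN Treg (SE 0.0997), all called. The 4 CD8 and NK marker genes summed to 34.0, 2.22 and 22.1 CPM in the same groups, the same order as Ifng. Of these genes, Cd8a had that order, with log2 fold changes of 5.14, 1.62 and -3.52 in the same comparisons. The others did not: Cd8b1 was called lower in tumor pTreg than in LN Treg (-0.37). Klrb1c was not called in any comparison, and Ncr1 had no count in tumor pTreg. The part of CD8 and NK cells in the level of Ifng was not tested.

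The receptor chain Ifngr1 averaged 284 CPM in tumor pTreg, 133 in tumor tTreg and 327 in LN Treg, and the kinase Jak2 averaged 195, 107 and 243 CPM. Both genes had the group order of H2-K1 and were called in each comparison. Irf1, an interferon regulatory factor, averaged 248, 213 and 261 CPM and was not called in tumor pTreg against LN Treg (log2 fold change 0.03, edgeR adjusted p = 0.520); with library totals as the only scaling, the scale of these CPM, the change was -0.079 and called lower (edgeR adjusted p = 0.0440). Rfx5, which binds class I promoters together with Nlrc5, averaged 20.5 CPM in tumor pTreg, 20.5 in tumor tTreg and 61.0 in LN Treg; the log2 fold change between the tumor groups was 0.01 (edgeR adjusted p = 0.887), and it was called lower in both tumor groups than in LN Treg. By CPM, Ifng was highest in tumor pTreg, while H2-K1, Nlrc5 and Psmb8 were highest in LN Treg. Per count of the pan-T genes, all of these genes were lowest in LN Treg. The part of Ifng in the levels of the other genes was not tested.

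Genes whose levels over the 12 libraries ran most like 3 of the members were found by Pearson correlation of log2(CPM + 0.5). For Nlrc5 they were Madd, Herc3 and Rasgrp1, for H2-K1 they were Atp8b2, Rac2 and Notch1, and for Psmb8 they were Capg, Ltb and Coro1a, with r of 0.999 or more. The 12 libraries form 3 separate groups of very different cell content, so r describes the order and spacing of 3 group levels. Madd averaged 81.9 CPM in tumor pTreg, 47.6 in tumor tTreg and 246 in LN Treg, and Rac2 averaged 295, 113 and 1033 CPM.

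The levels were also set against the T cell transcripts, as counts per 100 counts of the 18 pan-T genes. On this scale tumor tTreg stood highest and LN Treg lowest for all 10 genes. H2-K1 had 127 counts per 100 pan-T counts in tumor pTreg, 659 in tumor tTreg and 64.7 in LN Treg. Nlrc5 had 11.4, 57.5 and 8.95, Tap1 14.4, 106 and 6.07, Psmb8 9.66, 66.7 and 3.96, and B2m 115, 929 and 29.0. In tumor pTreg all 10 were called lower than in tumor tTreg, as were 97.0% of all genes (median log2 fold change -2.91 over the 10 and -3.32 over all genes). All 10 were called higher in tumor pTreg than in LN Treg, as were 91.4% of all genes (medians 1.27 and 2.28), and in tumor tTreg than in LN Treg, as were 96.8% (medians 4.10 and 5.58).

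**Figure D4:**
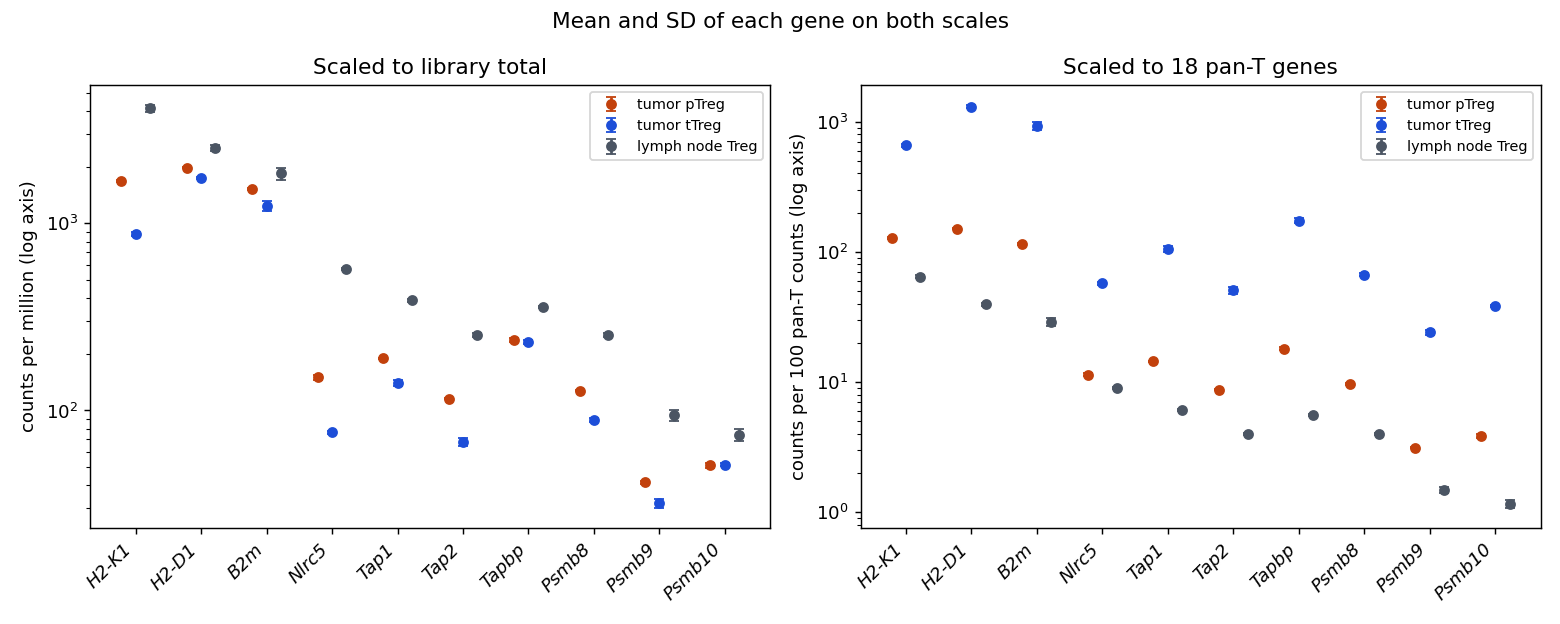
Mean and SD of the 10 genes in tumor pTreg (n = 3), tumor tTreg (n = 5) and LN Treg (n = 4), as CPM on the left and as counts per 100 counts of the 18 pan-T genes on the right, both on log axes. LN Treg lies highest on the left and lowest on the right for each gene, and tumor tTreg highest on the right.

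A common factor per library moves all genes alike, so differences between the genes stayed much as they were. Nlrc5 was nearest to the pan-T genes in each comparison, with log2 fold changes per pan-T count of -2.33 in tumor pTreg against tumor tTreg, 0.35 in tumor pTreg against LN Treg and 2.68 in tumor tTreg against LN Treg. H2-K1 came next in each, at -2.37, 0.98 and 3.35. Tapbp (-3.27) and Psmb10 (-3.32) lay at the median of all genes in tumor pTreg against tumor tTreg. Against tumor tTreg, 23 of the 24 interferon and transactivator genes were called lower in tumor pTreg on this scale, beside 97.0% of all genes. The 24 had a median log2 fold change per pan-T count of -3.09, near the -3.32 of all genes. Ifng was called higher, with a log2 fold change per pan-T count of 1.88. Of the 5 Treg genes, 3 were called lower and 1 higher per pan-T count in tumor pTreg than in LN Treg (median -1.31), where 91.4% of all genes were called higher. In tumor tTreg against LN Treg, 4 were called higher and 0 lower (median 0.44), beside 96.8% of all genes called higher. The part of Treg in the pan-T counts of each group was not tested. Because macrophages and hepatoma cells also transcribe class I genes, a count per pan-T count is not a level per T cell. Which scale stands nearer to the level in Treg cannot be told from these bulk libraries.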

How the data were processed

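RNA of 12 Treg libraries was sequenced on a BGISEQ-500 after TRIzol extraction, per the labels' protocols. STAR 2.7.11a, RSEM 1.3.3 and DESeq2 (version not given) are named in the submitters' processing notes, with build GRCm38/mm10; the gene annotation and strand setting are not given in the sources used here. The deposited tables hold estimated counts per gene (whole numbers as deposited, of the kind RSEM gives after rounding) and FPKM per gene, both made by the authors for all 12 libraries; only the counts entered the main test, with no further rounding needed.

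Counts were tested with edgeR 4.0.16 (quasi-likelihood F test, TMM factors, filterByExpr by group, all 12 libraries in 1 fit, group as the only term), adjusted by Benjamini-Hochberg over 15705 genes and called at 0.05. SE is the log2 fold change over the root of F. TMM assumes that most genes do not change, and 52.1% to 90.3% were called, so the same test was also run with the summed counts of 18 pan-T genes as library size. Ratios are of FPKM, with no pseudocount, tested by two-sided exact permutation (scipy 1.17.1). The fits were tested on simulated data with known changes in a small share of genes, so that test does not address the TMM assumption. DESeq2 1.42.0 and limma 3.58.1 on log2(FPKM + 1) served as alternatives, beside other scalings, filters and samples left out. Replicate numbers were not used as pairs in the main test: over 9621 genes, same-numbered libraries' deviations correlated between -0.0496 and 0.0526. Such correlations cannot exclude pairing. The library names of the tumor groups share some numbers, and the labels do not say whether such libraries came from the same tumor.

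The text names the 10 genes, Psmb5, Psmb6 and Psmb7, up to 3 genes per other pathway list with the smallest p in tumor pTreg against tumor tTreg, the regulators Ifng, Irf1 and Rfx5 (1 further regulator of the rule is not reported here), and 3 genes most correlated with each of H2-K1, Nlrc5 and Psmb8. Members, lists and tests were chosen with earlier results of these data known. Depth was 14573864 to 18510923 counts per library. Promoter sequences are from RefSeq, and gene bounds from GENCODE vM21.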

Additional observations from a re-analysis of the deposited data

Results flagged for a closer look

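Of 46 sets of values checked (groups of 4 or 5 libraries), 1 held a library far from the others. In tumor tTreg, the FPKM ratio of Psmb8 over Psmb5 was 1.47 in replicate 2, the highest of the 5 libraries, and its distance to the next was 0.748 of the whole range. Chance flags about 1 in 20 such sets. The other 4 tumor tTreg libraries lay between 1.36 and 1.39, and replicate 2 was still below each tumor pTreg library (2.18 to 2.37).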

How the results depend on the processing

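For the 10 genes, all 540 alternative values of the log2 fold change kept their side of the threshold and, for called genes, their direction (Psmb10, not called between the tumor groups, ranged from -0.024 to 0.018 with a library left out), under RLE factors, library totals, other count filters, DESeq2, limma on FPKM, only the compared groups, replicate numbers as a block, and each library left out. Counts of all genes called stayed within 1.5 times of the main ones; tumor pTreg against tumor tTreg gave 4204 higher and 3980 lower, and 3572 and 4872 with RLE factors. With replicate numbers as a block it gave 3932 and 3563, and the calls of the 10 genes were unchanged. In tumor tTreg against LN Treg the ratio tests lost their call with 4 same-numbered pairs in an exact sign-flip test (-1.65 for Psmb8 over Psmb5, -2.12 for Psmb9 over Psmb6 and -1.46 for Psmb10 over Psmb7; adjusted p 0.25) and with any 1 library left out (-1.68 to -1.62, -2.16 to -2.10 and -1.46 to -1.43), where fewer libraries raise the smallest p. In tumor pTreg against LN Treg, the log2 fold change of Irf1 was -0.079 (adjusted p = 0.0440) with library totals only; the cause was not tested. In shorter lists, 109 counts of calls moved by more than 1.5 times. With CD3 genes alone in place of the pan-T genes, all 10 genes kept their calls. Depth limits little here: each of the 10 genes averaged 32.0 CPM or more in each group.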
